A study of Mus musculus with 8 samples.

Results

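The LY6 genes of mouse chromosome 15 encode small cysteine-rich surface proteins, and 9 gene names of this family are described here: I830127L07Rik, Ly6a, Ly6c1, Ly6c2, Ly6e, Ly6i, Ly6h, Ly6k and Gpihbp1l. They were chosen by name, as the neighbourhood of I830127L07Rik, a gene picked for its large fold change in these same hearts. For that reason I830127L07Rik is described without a test, and the results of the other members are descriptions of a list drawn up with the outcome known. Of the 9 names, 8 were found in the table of 43346 genes, and 6 had enough counts to be tested. Gpihbp1l was not in the table under that name and was not analysed here.

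RNA was sequenced from the cardiac ventricle of 8 male C57BL/6 mice. At 7 weeks of age the mice received a subcutaneous injection into the left flank, and the heart was taken 14 days later. The 4 LLC1 mice received 1000000 LLC1 cells, a Lewis lung carcinoma line that grows as a tumor in this strain, and the 4 PBS mice received the saline vehicle. The comparison asks how the ventricle's RNA differs in mice that carry the tumor cells, and mice are named by the replicate codes of the labels (for example LLC1 1-2).

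Total counts were 12480706 to 19747596 per mouse. Cardiomyocyte markers summed to 126922 to 137431 CPM (counts scaled to a library of 1000000) in LLC1 mice and 117015 to 128794 CPM in PBS mice, which fits the tissue named in the labels. PBS 1-1 stood apart from the other mice on the second principal component, which held 25.2% of the variance. CPM values below were scaled by trimmed-mean (TMM) factors. Log2 fold changes are LLC1 minus PBS from edgeR's quasi-likelihood test over 16111 genes, and a gene was called at a false discovery rate (FDR) under 0.05.

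LY6 proteins share a compact disulfide-bonded fold with the urokinase receptor, and most are held on the outer cell membrane by a glycosylphosphatidylinositol (GPI) anchor. Ly6a (Sca-1) is a widely used marker of mouse blood stem cells and is also carried by endothelial cells and some fibroblasts. Ly6c1 and Ly6c2 encode the Ly6C antigens, used to sort monocytes and also found on endothelium, and several genes of the family are known to be induced by interferons. Because these are bulk samples, more cells of a type and more RNA per cell cannot be told apart.

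The members lie close together and resemble each other, so their sequences bear on what a read count can mean. Positions are those of the mm10 build. From left to right on chromosome 15, Ly6k starts at 74796874 and ends at 74799986, Ly6e at 74955051 and 74959905, Ly6i at 74979534 and 74983430, and Ly6a at 74994877 and 74998031. Ly6c1 follows at 75044018 to 75048830, Ly6c2 at 75108158 to 75111970, I830127L07Rik at 75131377 to 75135128, and Ly6h at 75551268 to 75567255. Ly6i, Ly6a, Ly6c1, Ly6c2 and I830127L07Rik are all on the minus strand. The count table classes I830127L07Rik (ENSMUSG00000102051) as a transcribed unprocessed pseudogene, whereas RefSeq names it Ly6a2 and classes it as protein coding.

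The internal exon of 117 bases that 5 of the members share is shown because it separates the close copies from the distant ones. It is exon 3 of the GENCODE M21 transcripts, written 5′ to 3′ on the gene's strand, with capitals at the positions that differ from Ly6c2. The exon lies at chr15:75110511-75110627 in Ly6c2, chr15:75047353-75047469 in Ly6c1, chr15:75133689-75133805 in I830127L07Rik, chr15:74996452-74996568 in Ly6a and chr15:74981886-74982002 in Ly6i.
Ly6c2: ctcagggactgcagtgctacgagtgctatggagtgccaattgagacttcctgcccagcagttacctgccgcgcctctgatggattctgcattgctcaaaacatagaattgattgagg
Ly6c1: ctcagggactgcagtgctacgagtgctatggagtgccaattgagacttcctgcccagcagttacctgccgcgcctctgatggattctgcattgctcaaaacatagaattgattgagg
I830127L07Rik: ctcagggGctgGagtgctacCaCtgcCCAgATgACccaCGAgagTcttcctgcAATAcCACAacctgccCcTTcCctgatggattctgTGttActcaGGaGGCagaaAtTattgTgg
Ly6a: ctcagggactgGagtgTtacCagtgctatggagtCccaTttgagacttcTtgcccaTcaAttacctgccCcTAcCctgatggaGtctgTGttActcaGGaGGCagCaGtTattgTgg
Ly6i: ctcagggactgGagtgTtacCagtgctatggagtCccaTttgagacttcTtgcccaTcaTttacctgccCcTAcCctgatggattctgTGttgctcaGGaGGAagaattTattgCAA
Ly6c1 and Ly6c2 are identical over this exon. I830127L07Rik differed from Ly6c2 at 38 positions (67.5% identity), Ly6a at 25 (78.6%) and Ly6i at 23 (80.3%), while Ly6a and Ly6i differed from each other at 9 (92.3%). The exon of I830127L07Rik carries no annotated coding sequence in this annotation.

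Upstream of the genes the order of likeness was different, and these stretches are shown for that contrast. The RefSeq tables (GRCm38.p6) hold a promoter window, from 250 bases before to 50 after the start, for 3 of the 9 members. Printed are the part of the Ly6c2 window that lies upstream of the gene's whole span in RefSeq, and the stretches of the other windows aligned to that part. They are on the minus strand at chr15:75112067-75112221 for Ly6c2, chr15:75135219-75135373 for I830127L07Rik and chr15:75048921-75049056 for Ly6c1, with capitals where a base differs from the aligned base of Ly6c2.
Ly6c2: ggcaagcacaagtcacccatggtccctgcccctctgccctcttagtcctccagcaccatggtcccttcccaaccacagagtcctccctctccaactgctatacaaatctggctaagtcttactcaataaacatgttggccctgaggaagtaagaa
I830127L07Rik: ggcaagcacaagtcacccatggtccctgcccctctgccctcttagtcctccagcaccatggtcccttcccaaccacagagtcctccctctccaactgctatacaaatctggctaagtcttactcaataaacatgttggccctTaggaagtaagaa
Ly6c1: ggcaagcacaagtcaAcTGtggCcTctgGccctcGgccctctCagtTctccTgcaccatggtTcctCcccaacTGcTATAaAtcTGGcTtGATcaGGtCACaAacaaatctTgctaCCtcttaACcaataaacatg
Over these stretches I830127L07Rik had 1 mismatch to Ly6c2 in 155 bases (99.4% identity), and Ly6c1 had 35 mismatches and 2 gaps in 136 aligned bases (72.8%). Over the whole windows of 300 bases I830127L07Rik had 5 mismatches and 5 gaps (96.7%), and Ly6c1 had 58 mismatches and 16 gaps in 282 aligned bases (73.8%). Thus the upstream sequence of I830127L07Rik was closer to that of Ly6c2 than the sequence of Ly6c1 was, although its exon was the most different of the 5. The letters TTCNNNGAA (STAT site) and TTGCNNAA (C/EBP site) and those of the interferon-stimulated response element were searched on both strands of the 5 windows of these 3 genes and were found in none, which says only that these letters are not in these windows. Of 32851 promoter windows in the genome, 8.30% held the STAT letters, 10.8% the C/EBP letters and 3.44% the interferon-stimulated response element.

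Over whole transcripts, Ly6c1 and Ly6c2 matched at 97.6% over 822 bases. I830127L07Rik matched Gm5960 at 91.9% over 344 bases, Ly6a at 84.8% over 645 bases, and both Ly6c1 and Ly6c2 at 83.6% over 645 bases. With Ly6c2 as the query the match to I830127L07Rik was 86.7% over 525 bases, so the order of Ly6a and Ly6c2 depends on which transcripts are compared. Of the 150-base windows of each gene's transcripts, 97.7% in Ly6c1, 98.6% in Ly6c2 and 100% in Ly6a, Ly6e, Ly6i and I830127L07Rik were found in no other gene, whereas at 50 bases the shares were 67.2% in Ly6c1, 81.0% in Ly6a, 85.6% in Ly6c2, 90.4% in I830127L07Rik, 95.2% in Ly6i and 100% in Ly6e. At 150 bases only Ly6c1 and Ly6c2 among these 6 genes shared windows with another gene, namely each other, whereas at 50 bases Ly6a was less unique than Ly6c2 and shared 195 windows with Ly6c1. Only transcripts were searched, and how the authors' counting treated reads with several matches is not given in the sources used here.

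**Figure D1:**
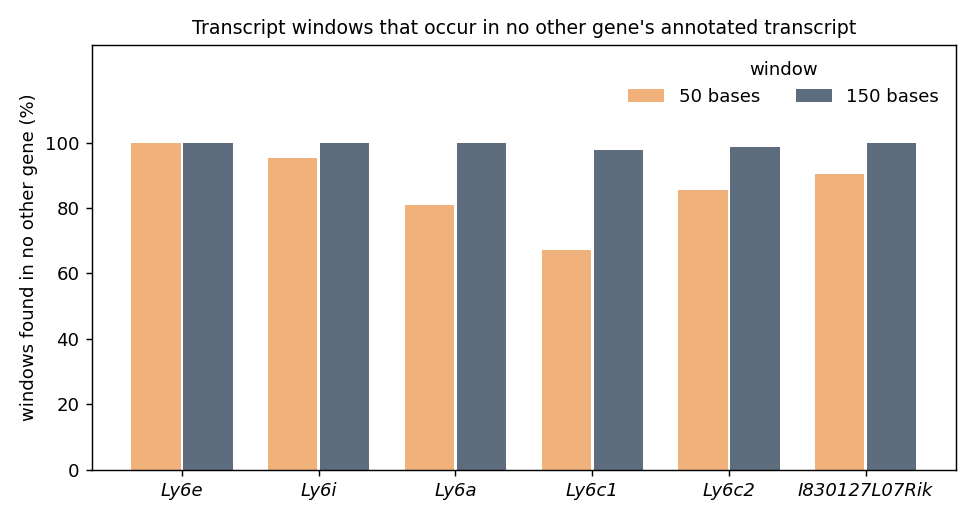
Share of each gene's transcript windows (y axis, percent) found in no other gene's transcripts, for windows of 50 and 150 bases, by gene (x axis). At 50 bases Ly6c1 is lowest at 67.2%, and at 150 bases all 6 tested members lie at 97.7% or above.

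The most abundant members per transcript length were Ly6c1 and Ly6a. In PBS mice Ly6c1 stood at 72.0 ± 4.54 CPM per kb, Ly6a at 68.3 ± 4.79 and Ly6e at 39.1 ± 7.98 (SD, n = 4). Lower levels were found for Ly6c2 (7.78 ± 1.43 CPM per kb), I830127L07Rik (2.21 ± 0.515) and Ly6i (1.61 ± 0.527). Ly6c1 and Ly6a did not differ beyond their spread in PBS mice, nor did I830127L07Rik and Ly6i. In LLC1 mice the order was the same, from Ly6c1 at 107 CPM per kb through Ly6a at 92.6, Ly6e at 39.5, Ly6c2 at 14.9 and I830127L07Rik at 9.45 to Ly6i at 2.26. The table's length adds up every annotated exon of a gene, and for Ly6c2 it includes a transcript that keeps an intron (2740 bases, against 822 in its longest coding transcript). Per kb of the longest coding transcript, a choice made after seeing the data, the order in PBS mice was unchanged, from Ly6c1 at 143 ± 9.01 CPM per kb, Ly6a at 86.1 ± 6.05 and Ly6e at 64.9 ± 13.2 to Ly6c2 at 25.9 ± 4.78, but Ly6c1 then lay clear of Ly6a.

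Ly6a, Ly6c1 and Ly6c2 rose in the ventricles of LLC1 mice, while Ly6e and Ly6i did not pass the test. That is 3 of the 5 tested members other than I830127L07Rik, beside 4.12% of all genes tested that were called higher in LLC1, 4.61% called lower and 8.73% called in either direction. The same 3 genes had groups that did not overlap, as did 8.89% of all genes with LLC1 higher. Since the list was built around a gene that differed, nothing is read from these shares.

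Ly6c2 showed the largest change of the 3. Its level was 48.6 CPM in LLC1 1-2, 37.5 in LLC1 1-3, 37.1 in LLC1 1-5 and 40.3 in LLC1 2-2. In the PBS mice it was 16.4 CPM in PBS 1-1, 21.03 in PBS 1-3, 21.8 in PBS 2-1 and 25.97 in PBS 2-5. Every LLC1 mouse was above every PBS mouse. The means were 40.9 ± 5.32 and 21.3 ± 3.93 CPM (SD, n = 4 each), a 1.91-fold difference (log2 fold change 0.93, SE 0.13, edgeR FDR 0.00187).

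Ly6c1, its near-identical neighbour, rose less. The LLC1 mice had 211 CPM in LLC1 1-2, 169 in LLC1 1-3, 165 in LLC1 1-5 and 171 in LLC1 2-2. The PBS mice had 123 CPM in PBS 1-1, 121 in PBS 1-3, 110 in PBS 2-1 and 129 in PBS 2-5. The groups did not overlap, and LLC1 1-2 lay well above the other LLC1 mice. Ly6c1 was 1.48-fold higher in LLC1 (log2 fold change 0.57, SE 0.09, edgeR FDR 0.00325). With the counts of Ly6c1 and Ly6c2 added into 1 value, the log2 fold change was 0.63 (edgeR FDR 0.00184), so the rise of the pair does not depend on how reads were divided between them.

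Ly6a had the smallest rise of the 3 called members. It stood at 135 CPM in LLC1 1-2, 109 in LLC1 1-3, 103 in LLC1 1-5 and 99.4 in LLC1 2-2, against 82.5 in PBS 1-1, 89.0 in PBS 1-3, 74.9 in PBS 2-1 and 82.5 in PBS 2-5. All LLC1 values were above all PBS values. The difference was 1.36-fold (log2 fold change 0.44, SE 0.10, edgeR FDR 0.0169). For each of these 3 genes the exact permutation test (2-sided, 70 arrangements of the mice) gave p = 0.0286, the smallest it can give. Groups that do not overlap always give this value, so it restates the lack of overlap and adds no separate support.

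Ly6e, a broadly expressed member known for its part in virus entry and restriction, was at the same mean level in both groups. LLC1 mice had 153, 165, 125 and 154 CPM in the order LLC1 1-2, 1-3, 1-5 and 2-2, and PBS mice had 111, 159, 140 and 183 CPM in the order PBS 1-1, 1-3, 2-1 and 2-5. The groups overlapped throughout, with both the lowest and the highest value in PBS mice (log2 fold change 0.01, SE 0.13, edgeR FDR 0.975, exact permutation p = 0.943).

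Ly6i, a close relative of Ly6a, was scarce. It had 3.04, 2.17, 2.79 and 2.47 CPM in the LLC1 mice and 1.54, 2.52, 1.18 and 2.18 CPM in the PBS mice, in the same orders. PBS 1-3 and PBS 2-5 lay within the LLC1 range, so the groups overlapped. The log2 fold change was 0.49 (SE 0.24, edgeR FDR 0.213, exact permutation p = 0.143). The estimate is close to that of Ly6a, but its error is larger, and a difference of this size was not separated from the spread at this depth.

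I830127L07Rik, the gene the list was built around, had 10.8 CPM in LLC1 1-2, 8.76 in LLC1 1-3, 2.84 in LLC1 1-5 and 7.70 in LLC1 2-2. In PBS mice it had 2.06, 2.17, 1.35 and 1.48 CPM in the order PBS 1-1, 1-3, 2-1 and 2-5. LLC1 1-5 was only slightly above the highest PBS mouse, while the other 3 LLC1 mice were far above it. These values rest on 164, 133, 52 and 153 counts in LLC1 mice and 24, 31, 23 and 25 counts in PBS mice. The means were 7.54 ± 3.39 and 1.77 ± 0.411 CPM (SD, n = 4 each), a 4.29-fold difference (log2 fold change 2.10, SE 0.36), given here with no test because the gene was chosen for it.

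The mice of the LLC1 group differed from each other more in I830127L07Rik than in any other tested member. Its coefficient of variation was 45.0% in LLC1 mice, where counting error alone would give 8.93%. In PBS mice it was 23.3%, close to the 19.7% of counting error. Among the other tested members the LLC1 coefficient of variation was 11.5% for Ly6e (counting error 1.98%), 12.04% for Ly6c1 (1.81%), 13.01% for Ly6c2 (3.79%), 14.3% for Ly6a (2.30%) and 14.5% for Ly6i (14.9%). The spread between LLC1 mice was thus above counting error for every tested member except Ly6i.

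**Figure D2:**
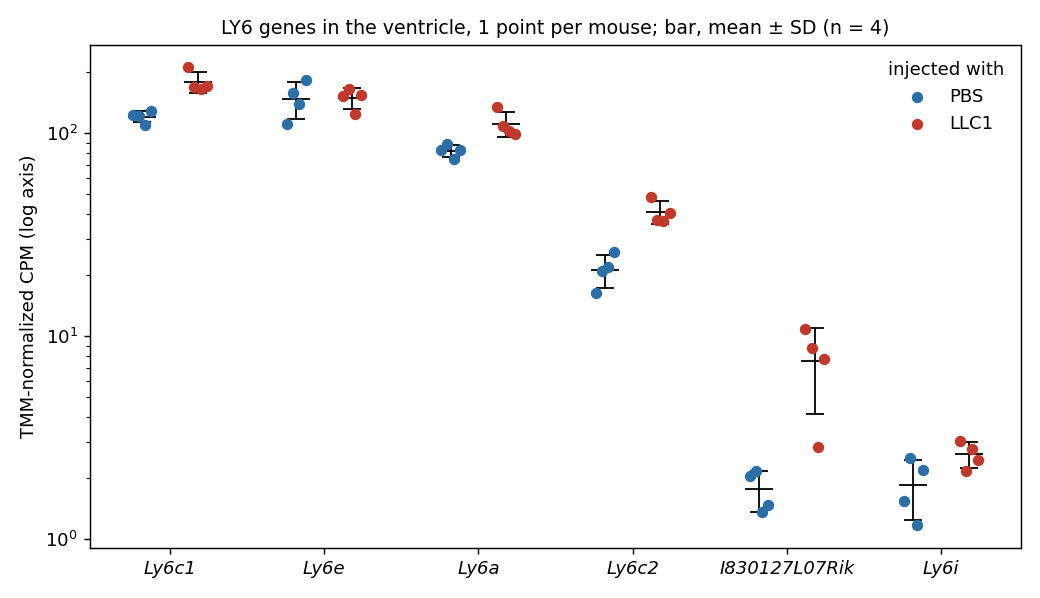
TMM-scaled CPM (y axis) of each tested LY6 member in the 4 LLC1 and 4 PBS mice, 1 point per mouse with the group mean and SD, on 1 log axis. The groups are apart for Ly6a, Ly6c1, Ly6c2 and I830127L07Rik and overlap for Ly6e and Ly6i.

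Ly6h and Ly6k had too few counts to be tested. Ly6h had 1 count in PBS 2-5 and none in the other mice. Ly6k had 0 to 2 counts in LLC1 mice and 0 to 3 in PBS mice, with 10 counts in all. No mouse was above the 3 counts that a count of 0 allows, which correspond to 0.151 to 0.257 CPM by library. The exons of Ly6k also overlap those of Gm17189 on the opposite strand. No fold change is given for either gene.

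Ratios between members within a mouse do not depend on library scaling. For every 100 counts of Ly6c1 there were 22.2 to 23.6 counts of Ly6c2 in the LLC1 mice and 13.4 to 20.2 in the PBS mice, so the balance within the pair also lay apart between groups. The LLC1 mice were close together in this ratio (22.8 ± 0.634, SD, n = 4) and the PBS mice were more spread (17.7 ± 3.13). Ly6c1 counts per 100 counts of Ly6a were 155 to 172 in LLC1 mice and 136 to 156 in PBS mice, which overlap. I830127L07Rik gave 7.67 to 23.3 counts per 100 of Ly6c2 in LLC1 mice and 5.68 to 12.6 in PBS mice. Against Ly6a it gave 2.76 to 8.04 and 1.79 to 2.49 per 100. LLC1 1-5 had the lowest of the LLC1 ratios in both cases, and these ratios are descriptions with no test.

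**Figure D3:**
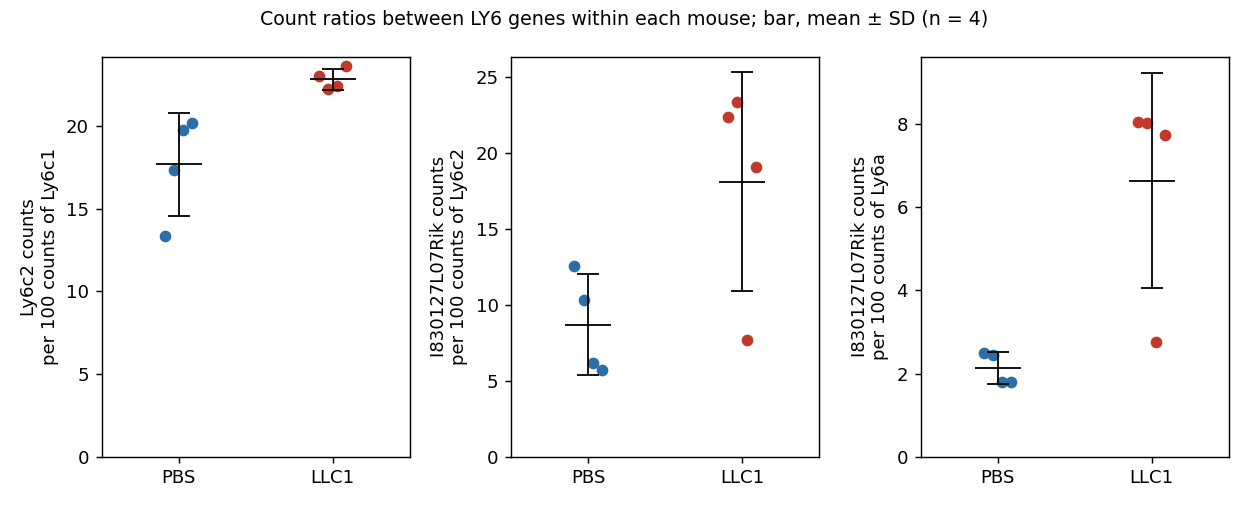
Ratios of counts between LY6 members within each mouse (y axes, counts per 100 counts of the second gene), by group. Ly6c2 per 100 of Ly6c1 lies at 22.2 to 23.6 in LLC1 mice and 13.4 to 20.2 in PBS mice.

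Most genes of the interval from Psca to Gpihbp1 had few counts in the ventricle. The interval, members included, holds 47 genes, of which 11 were tested and 36 had at most 10 counts in any mouse, with 17 of these at 0 in all mice. Among the untested LY6 genes, Ly6g had at most 1 count in any mouse and Ly6d at most 10 (21 over all mice), and Ly6f and Gml had none. Of the 5 tested genes that are not members, Gm28116 was called. It had 1.91 to 2.90 CPM in LLC1 mice and 0.858 to 1.35 CPM in PBS mice, and the groups did not overlap (log2 fold change 1.09, SE 0.22, edgeR FDR 0.0129). Lynx1, a modulator of nicotinic acetylcholine receptors, was abundant and level, at 338 to 367 CPM in LLC1 mice and 335 to 369 CPM in PBS mice (log2 fold change -0.02, SE 0.06, edgeR FDR 0.848). Gpihbp1, which carries lipoprotein lipase across the capillary wall, had a log2 fold change of 0.25 (SE 0.16, edgeR FDR 0.354) and was called when PBS 2-5 was left out (0.48, edgeR FDR 0.0101). Them6 (0.04) and Lypd2 (-0.19) were not called.

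**Figure D4:**
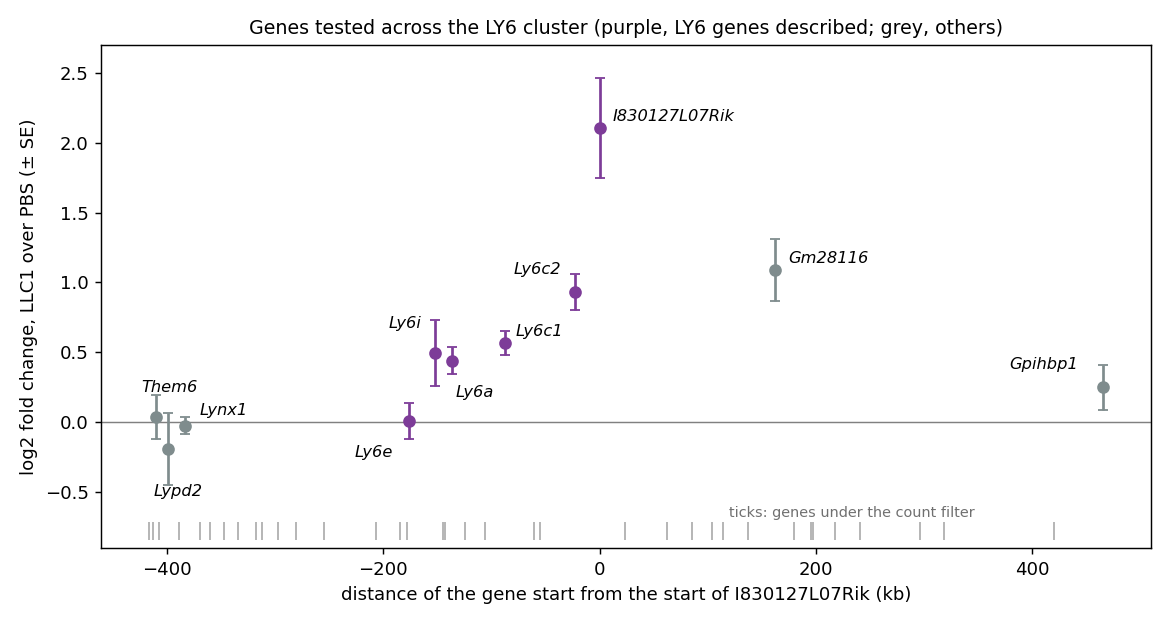
Log2 fold change, LLC1 minus PBS (y axis), with its SE for the 11 tested genes from Psca to Gpihbp1, by distance from the start of I830127L07Rik (x axis, kb), with ticks for genes under the count filter. Among the members the values run from 0.01 at Ly6e to 2.10 at I830127L07Rik, and Lynx1 lies at -0.02.

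Across the 8 mice, the genes whose log2 CPM was most like that of I830127L07Rik were Osmr (Pearson r = 0.98, and 0.93 after the group means were removed), Gnptg (0.97 and 0.89), Slc3a2 (0.96 and 0.86), Gm15487 (0.95 and 0.84) and Eif5al3-ps (0.95 and 0.82). Among the members, r with I830127L07Rik was 0.91 for Ly6c1, 0.89 for Ly6a, 0.82 for Ly6c2, 0.59 for Ly6i and 0.21 for Ly6e. Within groups these values were 0.56, 0.61, 0.14, 0.11 and 0.31, so much of the likeness to Ly6c2 lay in the difference between groups. Ly6c1 was most like Ccdc124 (0.99, within groups 0.96), Mif (0.99 and 0.95), Anapc5 (0.98 and 0.88), Sod1 (0.98 and 0.91) and 1700086O06Rik (0.98 and 0.83), and its r with Ly6a was 0.96 (0.88 within groups). The mice share their groups and libraries, and these are the highest of all genes tested, so the values are descriptions.

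Genes known for the signals that can induce LY6 genes were described alongside, and the counts below stand beside the 4.12% of all genes called higher and 4.61% called lower. Of 28 interferon-stimulated genes tested, none was called higher and 1 was called lower, Ifi44 (log2 fold change -0.52, edgeR FDR 0.0456). With 1 mouse left out this list held 0 to 3 called genes, and Ifi44 was called only without LLC1 1-2 or PBS 1-1. Of 18 interferon-gamma-induced genes, none was higher and 2 fell, Cxcl9 (-1.70, edgeR FDR 0.00105) and Irgm1 (-0.39, edgeR FDR 0.0319). Cxcl9 was called in all 8 fits with a mouse left out, Irgm1 only without LLC1 1-2 or PBS 1-1, and the list held 1 to 5 called genes. The median log2 fold changes of these lists were -0.20 and -0.19, beside -0.01 for all genes tested.

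Of 16 STAT3 and glucocorticoid-responsive genes, 3 rose and none fell, and the median of the list was 0.36. They were Lcn2, an iron-siderophore binding protein (0.99, edgeR FDR 0.0118), Cebpd, a transcription factor (0.87, edgeR FDR 0.0350), and Osmr, the oncostatin M receptor (0.67, edgeR FDR 0.0104). The other genes of the list were not called. Of these, Timp1 (-0.63), Dusp1 (-0.42), Sgk1 (-0.40) and Pim1 (-0.01) had negative estimates and the rest positive ones. Lcn2 and Osmr were called in all 8 fits with a mouse left out, and Cebpd only without PBS 1-1. The number called in this list was 2 to 7 in those fits and 3 to 9 under the other alternatives. Of 15 GPI transamidase and GPI-anchor genes, 1 rose (Pgap3, 0.40, edgeR FDR 0.0410), which is near the share of all genes. Among the fits with a mouse left out, Pgap3 was called only without PBS 1-1 or PBS 2-5. It was not called with library totals only (FDR 0.129). Of 4 tested LY6-fold genes elsewhere in the genome 1 fell, the urokinase receptor Plaur (-0.88, edgeR FDR 0.0416), which was called only without PBS 1-1 or PBS 2-1 and not by limma-voom (FDR 0.0570).

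Markers of the cells that can carry LY6 proteins were examined in the same comparison. Their counts, too, stand beside the 4.12% of all genes tested that were called higher and 4.61% called lower. Of 18 endothelial markers, 1 rose (Flt1, log2 fold change 0.35) and 3 fell (Cldn5, -0.79; Kdr, -0.61; Emcn, -0.31), with a list median of -0.17. Cldn5 and Kdr were called in all 8 fits with a mouse left out. Emcn was not called without LLC1 1-3, LLC1 2-2 or PBS 1-3, and Flt1 was called only without LLC1 1-5, PBS 1-1 or PBS 2-5 and not with library totals only (FDR 0.0719). The list held 2 to 7 called genes in those fits and 7 with DESeq2. Its summed level was 4514 to 4771 CPM in LLC1 mice and 4371 to 5066 CPM in PBS mice, of which Cd36 alone made up 2013 and 1897 CPM on average.

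Of 15 monocyte and macrophage markers 6 fell and none rose, with a list median of -0.28 and with Cx3cr1 at -1.08, Ccr2 at -0.99, Ms4a7 at -0.96 and Lyz2 at -0.57. The number called was 1 to 8 with a mouse left out. Lyz2 was called in all 8 of these fits. Among those fits Cx3cr1 was called only without PBS 1-1, PBS 1-3 or PBS 2-5, Ccr2 only without LLC1 2-2, PBS 1-1 or PBS 2-5, and Ms4a7 not without LLC1 1-3, LLC1 1-5, LLC1 2-2 or PBS 2-1. Under the other alternatives the list held 4 to 6 called genes, and Cx3cr1 was called in 7 of 10 (highest FDR 0.0675, by limma-voom). The sums were 356 to 454 CPM in LLC1 mice and 403 to 565 CPM in PBS mice, which overlap.

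Fibroblast markers fell in 6 of 15 cases and rose in 1, with a list median of -0.31. Postn (-1.35), Col3a1 (-0.98) and Cd34 (-0.74) were called in all 8 fits with a mouse left out, and Col1a2 (-0.63) not without LLC1 1-2, LLC1 1-3, LLC1 1-5 or PBS 1-3. The list held 5 to 9 called genes in those fits and 11 with DESeq2. It summed to 2838 to 3190 CPM in LLC1 mice and 2823 to 3605 CPM in PBS mice, of which Gsn made up 1583 and 1327 CPM on average.

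Of 3 tested neutrophil markers, S100a8 (1.76) and S100a9 (1.72) were called higher in LLC1 mice. Both were scarce, with means of 0.888 CPM in LLC1 and 0.279 in PBS mice for S100a8, and 1.13 and 0.353 for S100a9. The PBS means lie near the limit of 3 counts, 0.176 to 0.257 CPM in the PBS libraries. Both genes passed the count filter through the LLC1 group, so their calls and fold changes are descriptions only. S100a9 was called in all 8 fits with a mouse left out and S100a8 only without PBS 1-1. These fits used the same filter, so the repeated calls add no support. DESeq2 called 1 gene of the list, and none was called where 10 counts in every mouse were required, which S100a8 and S100a9 did not reach. The whole neutrophil list summed to 3.72 to 6.85 CPM in LLC1 mice and 1.48 to 3.35 CPM in PBS mice, with no overlap, and Elane was at 0 in every mouse. Neither of the 2 tested lymphocyte markers was called with all mice, and 0 to 1 was called under the alternatives. Of 12 cardiomyocyte markers, 3 rose (Mybpc3, 0.34; Ckm, 0.29; Myh6, 0.24) and none fell. Mybpc3 was called in all 8 fits with a mouse left out, Ckm only without LLC1 2-2, PBS 1-1 or PBS 2-5, and Myh6 not without LLC1 1-3, LLC1 1-5, PBS 1-3 or PBS 2-1. The list held 1 to 5 called genes in those fits, and with library totals only it held 1, with Ckm at FDR 0.0503 and Myh6 at FDR 0.124. Myh6 was also not called by the likelihood ratio test. The most abundant endothelial, fibroblast and lymphocyte markers per length, Cd36 (0.09), Gsn (0.25) and Thy1 (-0.50), were not called by edgeR's quasi-likelihood test with all mice. Thy1 was called by DESeq2, by the likelihood ratio test, with all genes that had a count and without PBS 1-1 (edgeR FDR 0.00370). Gsn was called by DESeq2, with the leading digit of the mouse code as a covariate and without PBS 2-5 (edgeR FDR 0.0475). The part of any of these cells in the LY6 values was not tested.

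**Figure D5:**
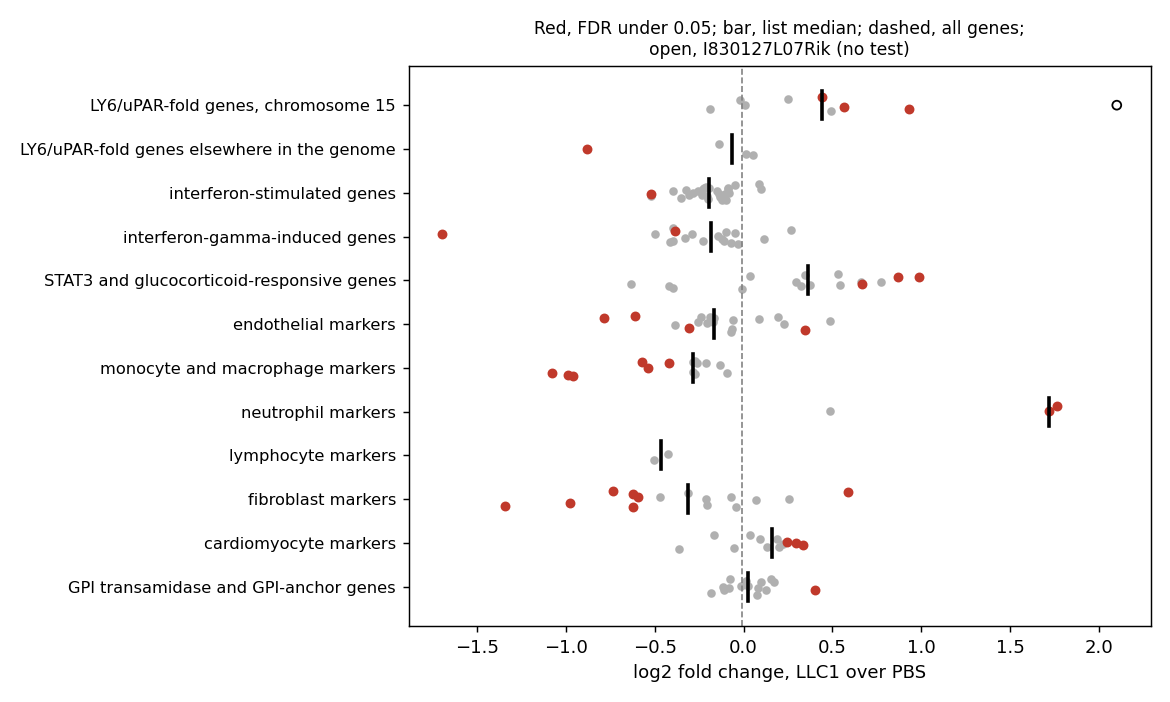
Log2 fold change, LLC1 minus PBS (x axis), of every tested gene in each list (rows), with the list median as a bar and the median of all genes tested (-0.01) dashed. Filled colour marks genes at FDR under 0.05, and I830127L07Rik is drawn open because it was given no test.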

How the data were processed

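Ventricular RNA from 4 LLC1 and 4 PBS mice was sequenced after TruSeq RNA v2 preparation. The authors deposited raw counts per gene for each mouse, and the submitters' notes name CASAVA, STAR, featureCounts and the mm10 build without versions. Strand and multi-mapping settings of the counting are not given in the sources used here. The deposited table also gives gene positions and lengths.

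Genes with low counts were removed by filterByExpr. Counts were scaled by TMM and tested with edgeR 4.0.16 (quasi-likelihood F-test, R 4.3.3), with Benjamini-Hochberg adjustment over all 16111 genes tested. Alternatives were DESeq2 1.42.0, limma-voom (limma 3.58.1), other scalings and filters, a covariate for the leading digit of each mouse's code, and each mouse left out. Single genes were compared by an exact permutation test over mice. Transcripts were compared with BLAST 2.17.0. In a simulation of this comparison on 15961 genes, 86 of 100 genes changed by 1 on the log2 scale were called. Of 100 genes changed by 2, 99 were called, and 9 unchanged genes were called. Smaller changes, such as those of Ly6a, Ly6c1 and Ly6i, were not simulated.

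The members and lists were chosen with earlier results of these data known. Named genes were the members, the genes of the interval, up to 4 called genes with the largest change in each other list, the most abundant member of each cell type list, and the 5 genes most like I830127L07Rik and Ly6c1. Nothing in the labels says whether mice were housed or injected together, and p-values measure the spread between these mice. Limits of detection cover counting error only, whereas the SEs of the log2 fold changes also hold the spread between mice.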

Additional observations from a re-analysis of the deposited data

Results flagged for a closer look

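Ly6c1 in the LLC1 group had 1 mouse far from the others. LLC1 1-2 had 211 CPM, and the other 3 LLC1 mice had 165 to 171 CPM. The gap to the nearest mouse was 0.888 of the range of the group. In all, 22 groups of 4 mice were examined in this way, and chance marks about 1 in 20 groups. Without LLC1 1-2, Ly6c1 was still called.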

How the results depend on the processing

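Ly6a, Ly6c1 and Ly6c2 were called in all 8 fits that left out a mouse and under every other alternative, with Ly6c1 and Ly6c2 as 1 feature where their counts were added. With a mouse left out, log2 fold changes were 0.34 to 0.49 for Ly6a, 0.48 to 0.60 for Ly6c1, 0.83 to 1.03 for Ly6c2, 1.88 to 2.38 for I830127L07Rik and 0.31 to 0.66 for Ly6i, which was called in none. The highest edgeR FDR for Ly6a was 0.0496, without PBS 2-1. Gm28116 was called in 7 of 8 such fits (FDR 0.0517 without PBS 1-3).

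Ly6e and Them6 changed sign: their log2 fold changes were -0.052 and -0.0076 with library totals only, and -0.104 to 0.121 and -0.0697 to 0.207 with a mouse left out. The cause was not tested. The number of genes called in the whole table was 1406, and 542 to 1949 with a mouse left out (542 without PBS 1-3, 1949 without PBS 1-1). The lists other than the LY6 cluster held 30 called genes, and 14 to 46 with a mouse left out (14 without LLC1 1-3, 46 without PBS 1-1). With library totals only, 22.1% of 1018 called genes were higher in LLC1, against 47.2% in the main comparison, and the median of all genes was -0.06. The first number of the replicate code was 1 in 3 LLC1 and 2 PBS mice, and 2 in 1 LLC1 and 2 PBS mice. Within these numbers (1 and 2), the log2 fold change was 0.42 and 0.34 for Ly6a, 0.57 and 0.52 for Ly6c1, and 1.13 and 0.76 for Ly6c2. The second value of each pair rests on 1 LLC1 mouse. No paired analysis was possible because the groups share only 1 replicate code, carried by different animals.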
